A study of Mus musculus with 12 samples.

Results

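The inhibitory arm of the NF-κB pathway was followed through 10 genes, chosen by their symbols among the 55335 genes listed for each library. They were Nfkbia, Nfkbib and Nfkbie, which encode the IκB proteins IκBα, IκBβ and IκBε, Nfkbiz, Nfkbid and Bcl3, which encode the nuclear IκB proteins IκBζ, IκBNS and BCL3, Tnfaip3, which encodes the ubiquitin-editing enzyme A20, and Tnip1, Tnip2 and Tnip3, which encode the A20-binding proteins ABIN1, ABIN2 and ABIN3. All 10 identifiers matched the annotation and all 10 genes passed the filter on low counts, with between 376 (Nfkbiz) and 49877 (Tnfaip3) expected counts per library. Their RNA was measured in dendritic cells grown from mouse bone marrow (BMDCs), in 12 libraries that form 4 groups of 3. The cells came from C57BL/6 mice of both sexes, 8 to 12 weeks old, that carried the Rosa26-CreER transgene (a tamoxifen-inducible Cre recombinase driven from a broadly active locus) and in which Ctcf was intact. This background is named WT. Bone marrow was cultured with GM-CSF for 6 days, with fresh medium every 2 days, and the study's methods describe selection of CD11c+ cells from such cultures. WT cells received neither agent. WTL cells received lipopolysaccharide (LPS), a glycolipid on the surface of Gram-negative bacteria, at 100 ng/ml for 3 h. WT+JSH23 cells received JSH-23, a small molecule that keeps RelA, a subunit of NF-κB, out of the nucleus, at 100 µM for 3 h. WTL+JSH23 cells received both, JSH-23 before LPS. Solvent for WT and WTL, 4-hydroxytamoxifen in these cultures, and whether a replicate was 1 mouse are not given in the sources used here, so p-values measure the spread between these libraries.

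In resting cells, IκB proteins hold NF-κB dimers in the cytoplasm. LPS binds the receptor TLR4 and its signal activates the IκB kinase complex (IKK), which marks IκB proteins for degradation, and the freed dimers enter the nucleus and bind κB sites in DNA. Genes of their own inhibitors are among the best known NF-κB targets, which closes a negative feedback loop: newly made IκBα carries dimers back to the cytoplasm, and A20, helped by the ABIN proteins, removes or binds the ubiquitin chains on which signalling to IKK relies. The nuclear IκB proteins act on dimers already at DNA and can repress or enhance single target genes.

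Library sizes ran from 24664724 to 34837847 expected counts. Of 9 dendritic cell markers, 8 had a mean above 10 TPM (length-corrected transcript abundance, scaled to one total per library) in every group. The other, Flt3, was at 2.34 to 3.42 TPM. All 7 markers of T, B and NK cells were under 1 TPM in every library. Macrophage markers were also present. Their means were above 10 TPM for 8 of 8 in WT and WT+JSH23, and for 7 of 8 in WTL and WTL+JSH23. The share of each cell type in the RNA was not measured. The summed level of 8 macrophage markers was lower with each agent, but the markers did not all move one way. The sum was 2390 to 2510 TPM in WT, 1630 to 1740 in WTL, 1760 to 1820 in WT+JSH23 and 1360 to 1380 in WTL+JSH23. C1qb, its largest part, had means of 1010, 780, 634 and 504 TPM in these groups. Mertk was higher with LPS (23.6 TPM in WT, 34.3 in WTL). Cd68 was higher with JSH-23 (307 TPM in WT, 379 in WT+JSH23). TPM has no scaling between libraries beyond its fixed total. On log2(TPM + 1), the median change of all genes tested was -0.26 for LPS without JSH-23 and -0.163 with it. For JSH-23 it was -0.009 without LPS and 0.097 under LPS. A lower TPM with LPS was thus common among the genes tested. The part of the marker shifts in the results was not tested. The sum of 8 neutrophil markers stayed between 168 and 223 TPM, and that of 5 mast cell and basophil markers between 1.88 and 4.39 TPM. In bulk RNA, fewer cells of one type and less RNA per cell cannot be told apart. Replicate 3 of WTL+JSH23 stood somewhat apart from the other 2 libraries of its group (chi-square of the counts per gene 8.19 and 9.12, against 2.32 to 4.5 for all other pairs within a group), and results that turn on it are given with and without it.

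Since κB sites are the DNA elements through which NF-κB acts, the promoters of the 10 genes were read first. RefSeq (GRCm38.p6) gave 12 promoter windows, from 250 bases before to 50 bases after a transcription start, for 9 of the genes, all but Nfkbiz. Each was searched on both strands for the κB motif of 10 bases (GGG, a purine, any 2 bases, 2 pyrimidines, CC), counting overlapping matches separately. The motif was found in windows of 7 of the 9 genes and in 7 of the 12 windows, and in 8.46% of all 32851 windows in the table. Counted per gene among the genes tested for expression, 12.4% of 10203 genes with a window had a match, as did 18.6% of the 689 that LPS raised more than 2-fold. A match is a description of letters and not a mapped binding site. Stretches of 150 bases are printed to show where the motif lies in the genes that carry it and, for comparison, in the 2 genes without it. Capitals mark the motif, and each stretch covers positions -130 to 20 from the start site, except that of Nfkbid, which covers positions -250 to -101 of its second annotated start.
Nfkbia (chr12:55492628-55492777, minus strand): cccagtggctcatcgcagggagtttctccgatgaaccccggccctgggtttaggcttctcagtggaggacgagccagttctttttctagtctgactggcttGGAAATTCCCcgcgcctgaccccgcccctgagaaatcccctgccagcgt
Nfkbie (chr17:45555570-45555719, plus strand): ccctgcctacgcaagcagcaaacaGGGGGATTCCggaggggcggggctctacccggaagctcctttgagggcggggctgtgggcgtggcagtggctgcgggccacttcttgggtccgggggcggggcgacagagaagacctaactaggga
Nfkbid (chr7:30422156-30422305, plus strand): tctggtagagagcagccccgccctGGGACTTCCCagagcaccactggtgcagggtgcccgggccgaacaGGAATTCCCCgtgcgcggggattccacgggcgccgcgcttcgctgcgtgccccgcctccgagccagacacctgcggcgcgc
Bcl3 (chr7:19822736-19822885, minus strand): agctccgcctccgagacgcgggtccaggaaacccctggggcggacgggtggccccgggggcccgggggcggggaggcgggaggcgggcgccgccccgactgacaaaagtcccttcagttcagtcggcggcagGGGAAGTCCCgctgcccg
Tnfaip3 (chr10:19015391-19015540, minus strand): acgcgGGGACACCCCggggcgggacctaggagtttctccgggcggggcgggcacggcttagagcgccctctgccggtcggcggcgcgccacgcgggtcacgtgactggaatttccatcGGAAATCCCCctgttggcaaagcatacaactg
Tnip1 (chr11:54962921-54963070, minus strand): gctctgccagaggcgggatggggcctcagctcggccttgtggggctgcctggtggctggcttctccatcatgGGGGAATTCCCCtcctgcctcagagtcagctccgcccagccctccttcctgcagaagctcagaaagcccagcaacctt
Tnip3 (chr6:65590268-65590417, plus strand): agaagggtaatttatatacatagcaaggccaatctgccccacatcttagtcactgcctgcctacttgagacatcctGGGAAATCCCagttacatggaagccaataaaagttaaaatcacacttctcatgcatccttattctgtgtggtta
Nfkbib (chr7:28766625-28766774, minus strand): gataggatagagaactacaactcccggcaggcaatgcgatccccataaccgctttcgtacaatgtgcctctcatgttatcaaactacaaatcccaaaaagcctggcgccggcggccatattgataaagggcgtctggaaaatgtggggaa
Tnip2 (chr5:34513960-34514109, minus strand): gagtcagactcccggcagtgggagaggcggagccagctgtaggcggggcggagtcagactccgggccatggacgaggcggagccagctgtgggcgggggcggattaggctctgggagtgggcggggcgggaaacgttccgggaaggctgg

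Nfkbia has a single match at -29, close to the start, and Tnip3 one at -54. Tnip1 has 3 overlapping matches at -58, -57 and -56, which merge into one run of 12 capitals. Tnfaip3 has matches at -125 and -12 of its first start and none at its second, and Nfkbid has matches at -226 and -181 of its second start and none at its other two. The match of Bcl3 begins at position 3, just after the start, and that of Nfkbie at -106. Nfkbib and Tnip2 have no match in these windows, which says only that these letters are not there.

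**Figure D1:**
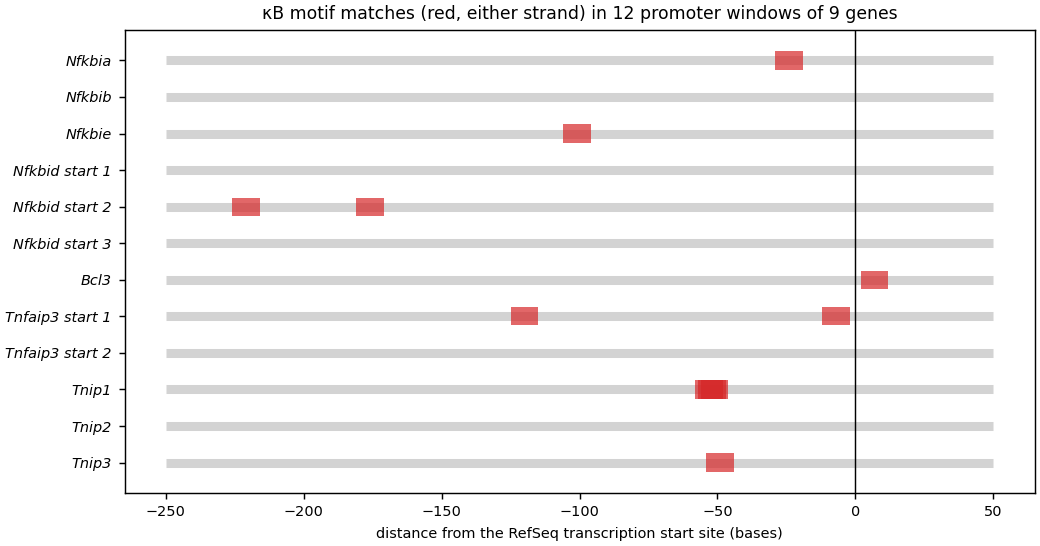
Positions of κB motif matches (red blocks, 10 bases each) in the 12 promoter windows (grey bars) of 9 genes, in bases from the RefSeq transcription start. Matches lie between -226 and 3, in 7 of the 12 windows, and the windows of Nfkbib and Tnip2 hold none.

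The first comparison, WTL against WT, asked how LPS alone changed the inhibitors. All 10 genes rose, Tnip2 in every fit but limma on log2(TPM + 1), at an adjusted p under 0.05 (quasi-likelihood F-test of edgeR, adjusted by the Benjamini-Hochberg method over 14357 genes), where 31.0% of all genes tested rose. With a change of more than 2-fold required as well, 8 of the 10 rose, all but Tnip2 and Tnip3, where 7.36% of all genes did. Bcl3 passed 2-fold only narrowly, at a log2 fold change of 1.018. It ran from 0.972 to 1.066 with a library left out and was 0.936 with upper quartile scaling, so the count turns on this gene. The median log2 fold change was 1.52 over the 10 genes and -0.047 over all genes tested. The same genes rose in cells that had received JSH-23 (WTL+JSH23 against WT+JSH23), 10 of 10 where 27.4% of all genes rose, and 7 of 10 by more than 2-fold where 5.85% did. Levels below are CPM (read pairs of a gene as a share of the TMM-scaled library size, on one scale for all libraries), with libraries in the order of their replicate numbers, and SDs are over 3 libraries.

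Nfkbia (ENSMUSG00000021025.8, GRCm38 chr12:55489410-55492647, minus strand), the gene of the prototype inhibitor IκBα, had 266.6, 265.7 and 265.6 CPM in WT and 1187, 1219 and 1134 CPM in WTL. In WT+JSH23 it had 206.5, 211.8 and 219.9 CPM and in WTL+JSH23 823.7, 866.8 and 912.1 CPM. The 4 groups did not overlap, with WTL highest and WT+JSH23 lowest. LPS raised it 4.44-fold without JSH-23 (log2 fold change 2.15 ± 0.042 SE, adjusted p = 2.32e-20) and 4.08-fold with it (2.03 ± 0.042, adjusted p = 1.2e-19).

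Nfkbib (ENSMUSG00000030595.15, GRCm38 chr7:28758251-28767512, minus strand) encodes IκBβ, which binds RelA and c-Rel dimers like IκBα. It had 85.23, 79.61 and 88.69 CPM in WT and 227.5, 234.5 and 226.6 CPM in WTL. In WT+JSH23 it had 95.54, 103.9 and 103.6 CPM and in WTL+JSH23 206.6, 207.8 and 233.6 CPM. It was the only one of the 10 genes with a higher mean in WT+JSH23 than in WT, and its WTL and WTL+JSH23 libraries overlapped. Its LPS rise was 2.72-fold without JSH-23 (1.44 ± 0.051, adjusted p = 4.32e-16) and 2.14-fold with it (1.10 ± 0.051, adjusted p = 7.51e-14). The gene overlaps Sirt2 on the opposite strand by 778 bases, Sirt2 stood at 77.48 to 124.58 TPM, and whether strand was used in counting is not given in the sources used here. Expected counts of Nfkbib were fractional in 10 of 12 libraries, which marks read pairs that RSEM shared with another gene, and its values are less certain for it.

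Nfkbie (ENSMUSG00000023947.8, GRCm38 chr17:45555703-45563169, plus strand) encodes IκBε, a slower acting inhibitor of the same dimers. Its level was 160.2 ± 4.09 CPM in WT, 381.3 ± 8.11 in WTL, 126.6 ± 3.05 in WT+JSH23 and 283.6 ± 6.18 in WTL+JSH23, with no overlap between groups. LPS raised it 2.38-fold without JSH-23 (1.25 ± 0.037, adjusted p = 1.63e-17) and 2.24-fold with it (1.16 ± 0.037, adjusted p = 1.44e-16).

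Nfkbiz (ENSMUSG00000035356.17, GRCm38 chr16:55811375-55838899, minus strand), the gene of the nuclear protein IκBζ, a coactivator that a set of secondary LPS response genes requires, rose most of the 10. It had 27.43, 26.06 and 24.63 CPM in WT and 848.1, 834.1 and 787.5 CPM in WTL. In WT+JSH23 it had 13.64, 13.6 and 14.23 CPM and in WTL+JSH23 424.2, 451.7 and 427.5 CPM. The lowest WTL library was above every WTL+JSH23 library, and every WT library was above every WT+JSH23 library. The LPS rise was 31.6-fold without JSH-23 (4.98 ± 0.050, adjusted p = 1.11e-24) and 31.4-fold with it (4.97 ± 0.053, adjusted p = 3.84e-24), which placed the gene at rank 33 and rank 24 of 14357 genes by fold change.

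The other two nuclear IκB genes rose less. Nfkbid (ENSMUSG00000036931.15, GRCm38 chr7:30421732-30428746, plus strand) encodes IκBNS, a regulator of NF-κB bound to DNA. It was the lowest of the 10 genes after LPS per length, and had 19.66, 20.71 and 21.97 CPM in WT, 63.07, 65.13 and 60.91 in WTL, 15.86, 19.86 and 16.17 in WT+JSH23 and 49.26, 49.02 and 48.22 in WTL+JSH23. Its LPS changes were 3.04-fold (1.60 ± 0.063, adjusted p = 2.65e-15) and 2.83-fold (1.50 ± 0.067, adjusted p = 3.81e-14). Bcl3 (ENSMUSG00000053175.17, GRCm38 chr7:19808462-19822770, minus strand) encodes a nuclear partner of p50 and p52 homodimers. It had 95.32, 93.78 and 101.2 CPM in WT, 197.4, 207.7 and 182 in WTL, 77.59, 81.25 and 79.19 in WT+JSH23 and 128.7, 135.2 and 132.7 in WTL+JSH23. It rose 2.02-fold without JSH-23 (1.02 ± 0.046, adjusted p = 3.06e-14) and 1.67-fold with it (0.74 ± 0.047, adjusted p = 2.01e-11). The 4 groups of Bcl3 did not overlap, while 1 WT+JSH23 library of Nfkbid lay within the range of WT. Bcl3 overlaps 2 antisense genes, neither above 2.25 TPM in any library.

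Tnfaip3 (ENSMUSG00000019850.11, GRCm38 chr10:19000910-19015657, minus strand), the gene of A20, had the second largest rise. It had 252.6, 257 and 265 CPM in WT, 1702, 1662 and 1599 in WTL, 191, 210 and 214 in WT+JSH23 and 1208, 1267 and 1280 in WTL+JSH23, with no overlap between groups. The rise was 6.41-fold without JSH-23 (2.68 ± 0.045, adjusted p = 1.73e-21) and 6.11-fold with it (2.61 ± 0.045, adjusted p = 5.59e-21).

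The 3 genes of A20-binding proteins differed widely. Tnip1 (ENSMUSG00000020400.17, GRCm38 chr11:54910785-54962917, minus strand) encodes ABIN1, which links A20 to its targets through ubiquitin. It had 141.6, 139.7 and 147.2 CPM in WT, 459.8, 476.8 and 468.6 in WTL, 129.4, 137.2 and 134.5 in WT+JSH23 and 338.8, 345.1 and 342.3 in WTL+JSH23. LPS raised it 3.28-fold without JSH-23 (1.71 ± 0.037, adjusted p = 9.86e-20) and 2.56-fold with it (1.36 ± 0.037, adjusted p = 8.89e-18). Tnip3 (ENSMUSG00000044162.12, GRCm38 chr6:65525313-65634040, plus strand) encodes ABIN3 and had 254.8, 260.3 and 257.5 CPM in WT, 507.5, 498.4 and 453 in WTL, 183.9, 180.9 and 180.1 in WT+JSH23 and 344.4, 354.6 and 341.2 in WTL+JSH23. It rose 1.89-fold without JSH-23 (0.92 ± 0.040, adjusted p = 1.56e-14) and 1.91-fold with it (0.93 ± 0.041, adjusted p = 2.92e-14).

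Tnip2 (ENSMUSG00000059866.13, GRCm38 chr5:34496087-34513991, minus strand) encodes ABIN2, known also as a partner of the kinase TPL2, and changed least. It had 43.52, 40.37 and 42.5 CPM in WT, 52.57, 51.43 and 51.56 in WTL, 39.67, 40.34 and 37.47 in WT+JSH23 and 47.55, 44.21 and 46.32 in WTL+JSH23. The LPS change was 1.23-fold without JSH-23 (0.30 ± 0.047, adjusted p = 8.92e-06) and 1.18-fold with it (0.23 ± 0.048, adjusted p = 0.000302). The rise without JSH-23 also passed with 2 other scalings in edgeR (log2 change 0.335 and 0.219). With limma on log2(TPM + 1), which changes the test, the length correction and the scaling together and put the median of all genes at -0.26, it was -0.086 (adjusted p = 0.321).

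**Figure D2:**
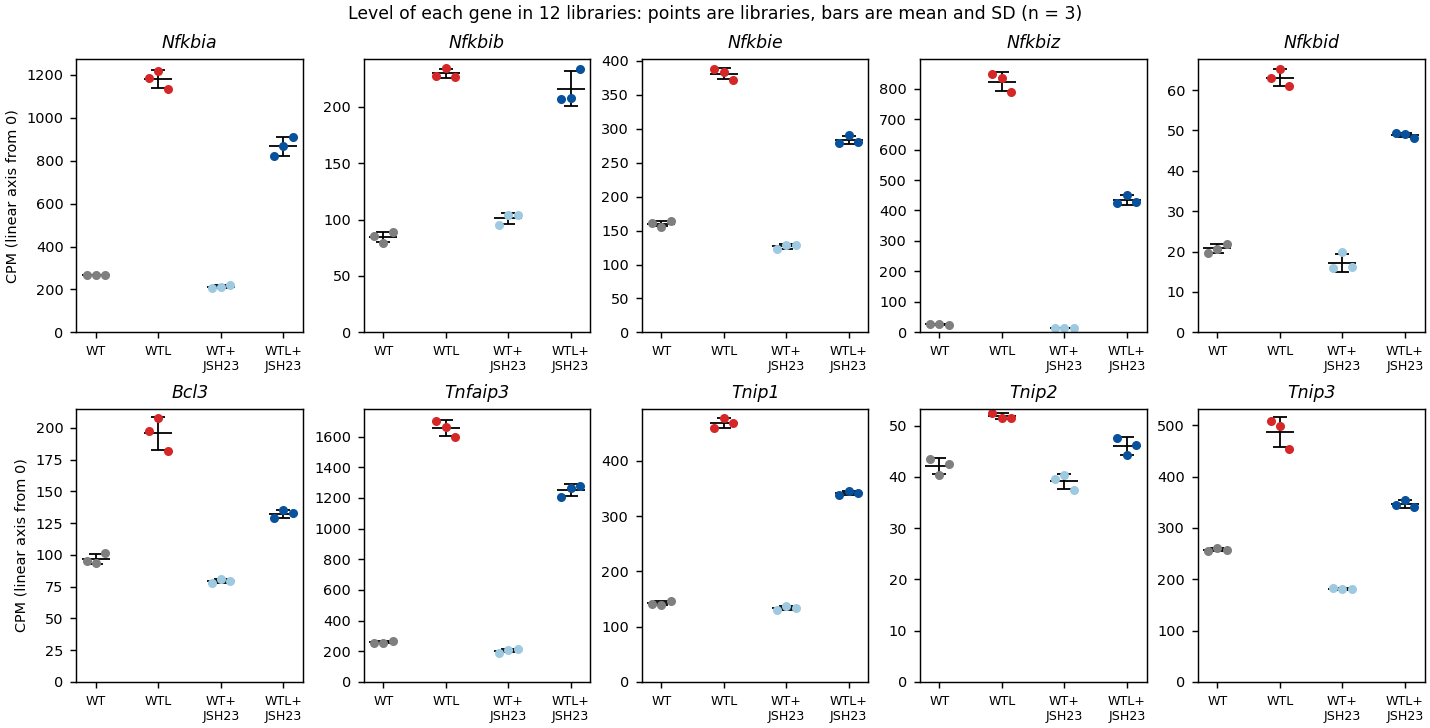
CPM of each gene in each of the 12 libraries (points), with mean and SD of 3 libraries (bars), on linear axes from 0. WTL is the highest group for every gene in its mean, and WT+JSH23 is the lowest for every gene except Nfkbib, whose lowest group is WT.

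Whether JSH-23 lowered these genes under LPS was asked by comparing WTL+JSH23 with WTL. Of the 10 genes, 9 fell at an adjusted p under 0.05, where 24.2% of all genes tested fell, and no fall reached 2-fold. The median log2 change was -0.44 over the 10 genes and 0.02 over all genes. Nfkbiz fell most, to 0.528 of its WTL level (log2 change -0.92 ± 0.040, adjusted p = 6.85e-14). Bcl3 followed, at 0.675 of its WTL level (-0.57 ± 0.046, adjusted p = 1.16e-09). Tnip3 (-0.49 ± 0.040), Tnip1 (-0.45 ± 0.035), Nfkbia (-0.44 ± 0.040), Nfkbie (-0.43 ± 0.036), Tnfaip3 (-0.40 ± 0.042) and Nfkbid (-0.37 ± 0.059) lay close together, with adjusted p values between 6.7e-10 and 2.18e-05. Tnip2 fell by 0.17 on the log2 scale (SE 0.047, adjusted p = 0.00494), but stood at 0.015 with limma on log2(TPM + 1). Nfkbib did not pass (-0.088 ± 0.049, 95% interval -0.20 to 0.025, adjusted p = 0.147). With a library left out its change ran from -0.055 to -0.15 and did not pass in 11 of 12 fits. It passed without WTL+JSH23 replicate 3, its highest library in that group (adjusted p = 0.00806).

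In cells without LPS (WT+JSH23 against WT), 8 of the 10 genes fell, where 22.1% of all genes tested fell, and Nfkbib rose, where 18.8% of all genes rose. The median was -0.30 over the 10 genes and -0.008 over all genes. Nfkbiz fell by 0.92 on the log2 scale (SE 0.058, adjusted p = 3.4e-11), to 0.53 of its WT level. Tnip3 fell by 0.50 (SE 0.041, adjusted p = 1.42e-09). Nfkbie (-0.34 ± 0.037), Tnfaip3 (-0.33 ± 0.043), Nfkbia (-0.32 ± 0.041), Bcl3 (-0.29 ± 0.048) and Nfkbid (-0.27 ± 0.071) fell less, with adjusted p values from 1.6e-07 to 0.00417. Nfkbib was 1.2-fold higher (0.26 ± 0.052, adjusted p = 0.000349). The fall of Tnip1 was near the threshold (-0.096 ± 0.037, adjusted p = 0.0433). It was lost in 6 of 12 fits that left out a library, namely WT replicate 4 or 6, WTL replicate 5, WT+JSH23 replicate 1 or 3, or WTL+JSH23 replicate 1, with adjusted p values from 0.0506 to 0.191. Tnip2 did not pass (-0.10 ± 0.047, 95% interval -0.21 to 0.004, adjusted p = 0.0837), and among 12 fits that left out a library passed only without WT replicate 5 (adjusted p = 0.0474). Replicates of the groups without JSH-23 are numbered 4 to 6 and those with it 1 to 3, and whether they were handled together is not given, so an effect of JSH-23 and of handling cannot be told apart.

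The interaction, which is the log2 LPS change with JSH-23 minus that without it, asked whether the response itself was smaller. It was lower for 3 of the 10 genes, where 8.44% of all genes tested had a lower one. These were Tnip1 (-0.36 ± 0.051, adjusted p = 4.78e-05), Nfkbib (-0.35 ± 0.071, adjusted p = 0.00178) and Bcl3 (-0.28 ± 0.066, adjusted p = 0.00494), and each passed in all 12 fits that left out a library. On log2(TPM + 1) only Tnip1 passed, and the values of Nfkbia, Nfkbie, Nfkbiz, Tnfaip3 and Tnip2 were above 0. For the 7 others the adjusted p ran from 0.156 to 0.964. The interval of the interaction was -0.18 to 0.16 for Nfkbiz, -0.12 to 0.15 for Tnip3 and -0.21 to 0.069 for Tnfaip3, so that larger differences than these in fold response lay outside the 95% interval. Nfkbia had -0.12 (95% interval -0.26 to 0.011, adjusted p = 0.156), and among the 12 fits passed only without WTL+JSH23 replicate 3 (-0.16, adjusted p = 0.0357). For Nfkbiz and Tnip3, then, the log2 change with JSH-23 was nearly equal with and without LPS, while for Tnip1 it was -0.096 without and -0.45 with LPS.

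**Figure D3:**
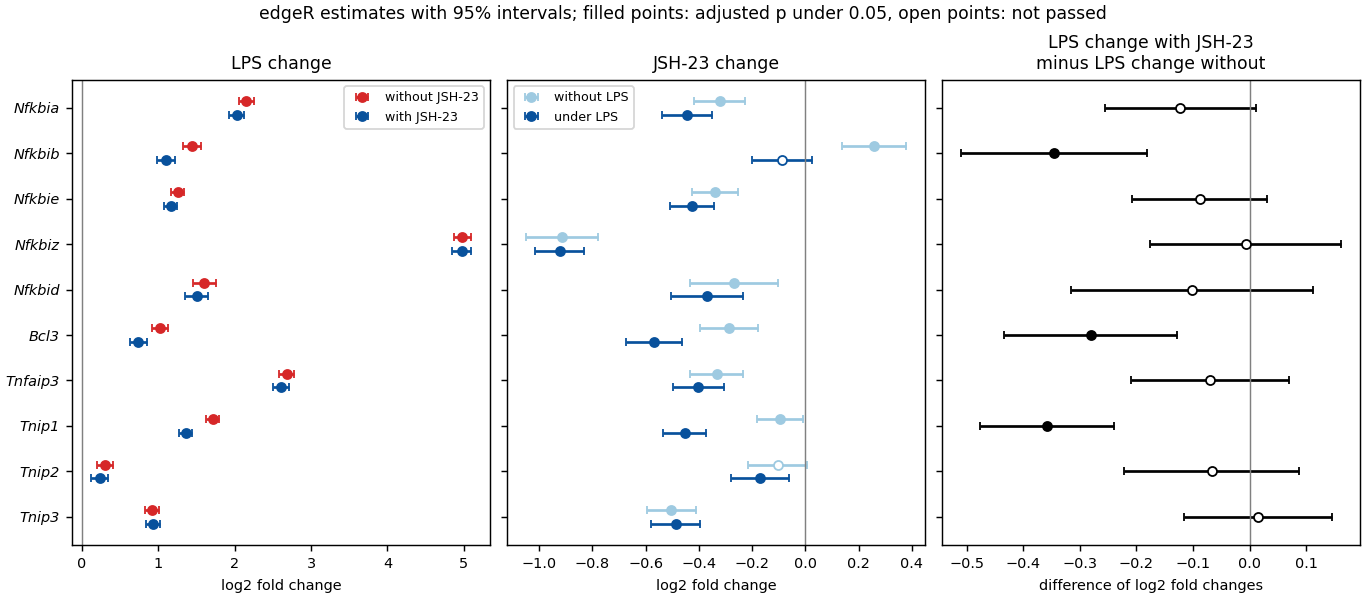
Log2 fold changes of the 10 genes with 95% intervals (edgeR, 3 libraries per group): the LPS change with and without JSH-23 (left), the JSH-23 change with and without LPS (middle) and the interaction (right). Filled points passed an adjusted p of 0.05, and Nfkbiz stands apart on the left at 4.98 and 4.97. Intervals use 8 degrees of freedom, fewer than the test, and are wider for it.

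Taken as a difference in CPM rather than as a fold, the mean rise with LPS was smaller with JSH-23 for each of the 10 genes. How often this held over all genes tested was not computed, so the count does not set these genes apart. Over all genes tested, more than 2-fold rises were also fewer with JSH-23 (840) than without it (1056). The rise of Nfkbiz was 797 CPM without JSH-23 and 421 with it, or 52.8%. The rise of Bcl3 was 98.9 and 52.8 CPM, or 53.4%, and that of Tnip1 326 and 208 CPM, or 64%. Nfkbie (71%), Nfkbia (71.6%), Tnip3 (72.2%), Nfkbid (74.6%) and Tnfaip3 (74.9%) kept more of their rise. The rise of Nfkbib was 145 and 115 CPM (79.3%) and that of Tnip2 9.73 and 6.87 CPM (70.6%), and for both the differences between single libraries overlapped. Nfkbiz therefore had an equal fold rise and a smaller rise in CPM, since its level before LPS was also lower.

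Levels of different genes were compared per length, in the authors' TPM. The 10 genes summed to 1349 ± 27.9 TPM in WT, 3704 ± 50.6 in WTL, 1122 ± 25.7 in WT+JSH23 and 2972 ± 49.8 in WTL+JSH23. TPM has no further scaling between libraries. The median change of all genes tested on log2(TPM + 1) was below 0 for LPS (-0.26 without JSH-23, -0.163 with it). Nfkbia was the most abundant in every group, at 378.79 TPM in WT, 1317.89 in WTL, 298.44 in WT+JSH23 and 1063.22 in WTL+JSH23. In WT it was followed by Tnip3 (302.1) and Nfkbib (135.91), then by Nfkbie (115.72), Tnfaip3 (114.65), Bcl3 (110.11) and Tnip1 (104.93), in which each overlapped the next, and by Tnip2 (53.59), Nfkbid (19.8) and Nfkbiz (13.65). In WTL the order was Nfkbia, Tnfaip3 (558.94), Tnip3 (460.57), Nfkbiz (316.76), Nfkbib (290.99), Tnip1 (266.84), Nfkbie (218.47), Bcl3 (176.39), Tnip2 (50.3) and Nfkbid (47.14), with no overlap between neighbours. Nfkbiz thus went from the tenth place to the fourth.

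In WT+JSH23 the order began Nfkbia, Tnip3 (218.01), Nfkbib (161.92) and Tnip1 (101.1). Bcl3 (91.93), Nfkbie (90.67) and Tnfaip3 (89.17) followed and overlapped, and Tnip2 (46.87), Nfkbid (16.43) and Nfkbiz (7.26) came last. In WTL+JSH23 the order was Nfkbia, Tnfaip3 (456.48), Tnip3 (361.91), Nfkbib (298.51), Tnip1 (214.1), Nfkbiz (180.8), Nfkbie (176.05), Bcl3 (130.5), Tnip2 (50.91) and Nfkbid (39.21). Nfkbiz and Nfkbie overlapped there, so that Nfkbiz, which stood apart from its neighbours in WTL, did not in WTL+JSH23.

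The make-up of the summed RNA changed with LPS. Nfkbia made up 28.1% ± 0.47 in WT and 35.6% ± 0.74 in WTL, and 26.6% ± 0.40 and 35.8% ± 0.90 with JSH-23. Tnfaip3 went from 8.50% ± 0.21 to 15.1% ± 0.31, and with JSH-23 from 7.95% ± 0.19 to 15.4% ± 0.16. Nfkbiz went from 1.01% ± 0.052 to 8.55% ± 0.18, and with JSH-23 from 0.647% ± 0.012 to 6.09% ± 0.26. Tnip3 fell as a share, from 22.4% ± 0.75 to 12.4% ± 0.51, and with JSH-23 from 19.4% ± 0.28 to 12.2% ± 0.48, although its level rose. Nfkbib was 10.1% ± 0.38 of the sum in WT and 14.4% ± 0.42 in WT+JSH23. The shares of Nfkbia, Tnfaip3, Tnip3 and Nfkbie after LPS overlapped between libraries with and without JSH-23. Those of Nfkbiz were lower with JSH-23 with no overlap, and those of Nfkbib (7.86% ± 0.15 and 10.04% ± 0.46) and Tnip2 (1.36% ± 0.060 and 1.72% ± 0.16) were higher with no overlap.

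**Figure D4:**
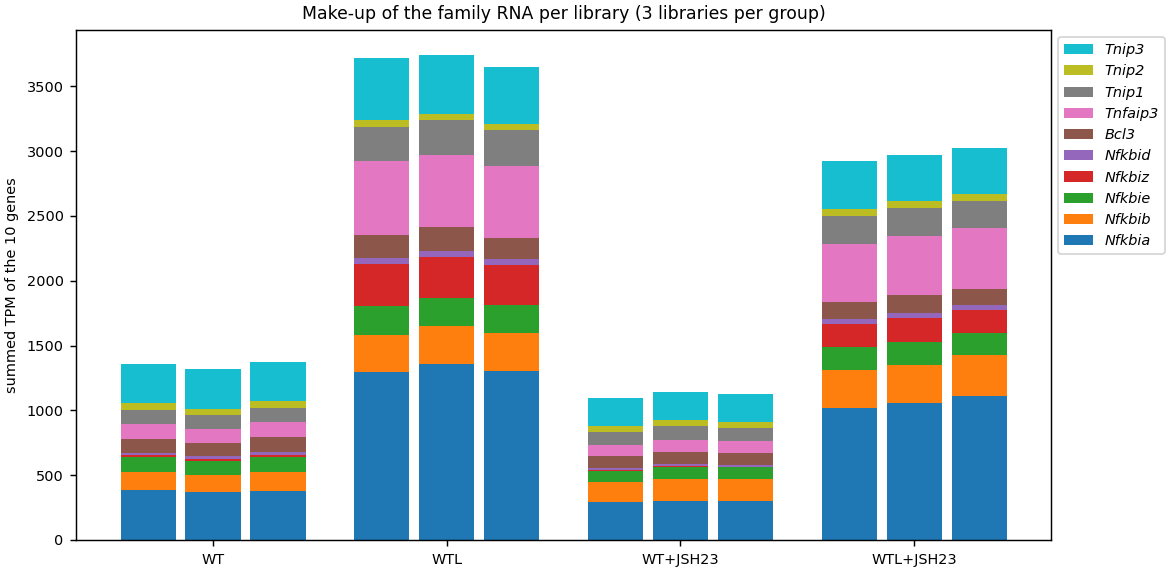
Summed TPM of the 10 genes in each of the 12 libraries, stacked by gene, on an axis from 0. The sum is 1349 TPM in WT and 3704 in WTL on average, and the added height after LPS comes mostly from Nfkbia, Tnfaip3 and Nfkbiz.

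RSEM also estimates for each gene a transcript length weighted by the abundance of its annotated transcripts, so that a shift in this value is a shift in the estimated mix of transcripts. Nfkbiz (6 annotated transcripts of 188 to 4115 bases) had an estimated length of 3347.0, 3367.7 and 3285.2 bases in WT and 3569.0, 3579.6 and 3607.3 bases in WTL. With JSH-23 it had 3292.8, 3252.4 and 3413.2 bases without LPS and 3612.6, 3605.7 and 3618.2 bases with LPS. The groups with and without LPS did not overlap, and the mean was 7.56% and 8.82% longer with LPS. Of 7136 genes with a mean of at least 10 TPM, 2.28% and 1.75% had a rise in length at least as large. Genes with a single annotated transcript, whose length cannot shift, were not left out of the 7136. All 10 genes have several (2 to 12), so shares of the 7136 may be too low a background for them. Tnfaip3 went from 3890 ± 45.1 to 4050 ± 19.7 bases and, with JSH-23, from 3955 ± 74.7 to 4086 ± 36.8 bases, again with no overlap, and 7.02% and 9.0% of the genes had a rise at least as large. These 2 of the 10 genes were longer in WTL than in WT with no overlap, where 6.77% of the 7136 genes were. With JSH-23, 5 of the 10 were, where 5.89% of the genes were: Nfkbiz, Tnfaip3, Tnip1 (4.33%), Nfkbid (2.18%) and Nfkbib (0.26%). Tnip2 was shorter after LPS with JSH-23 (1597 and 1513 bases), 1 of the 10 genes, where 9.57% of the genes were. Nfkbia overlapped between all groups, with means from 1386 to 1398 bases. Resting levels of Nfkbiz were low (376 counts at the least), which makes its resting length the less certain value.

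**Figure D5:**
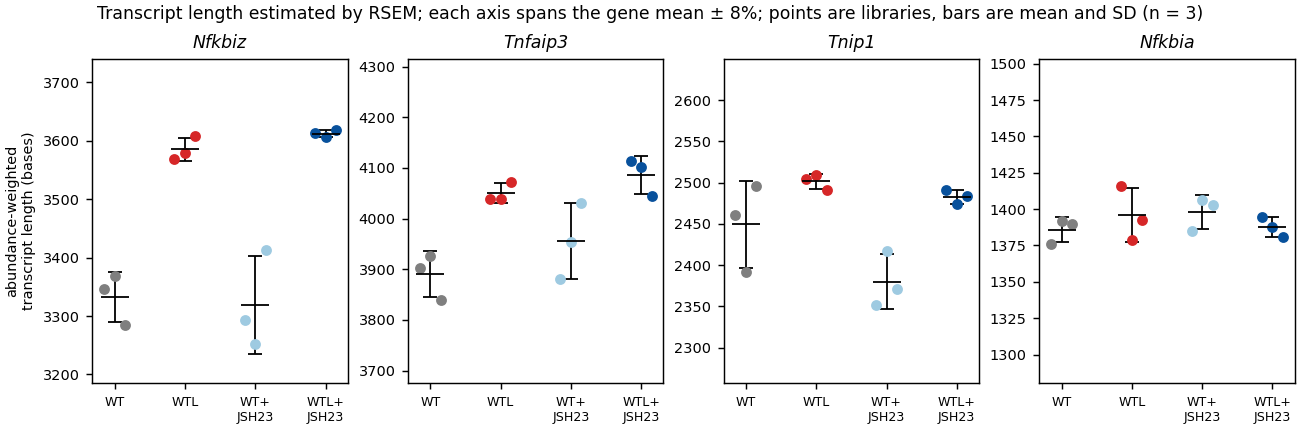
Transcript length in bases, weighted by abundance as RSEM estimated it, for 4 genes in each library (points) with mean and SD of 3 libraries; each axis spans from 92% to 108% of the gene's mean. Nfkbiz and Tnfaip3 are longer in both groups with LPS, whereas the groups of Nfkbia overlap.

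The inhibitors were then set beside the other genes of the pathway. Counts of each list are to be read beside those over all 14357 genes tested. There, LPS raised 4451 and lowered 4986 without JSH-23, and raised 3935 and lowered 3893 with it. JSH-23 raised 3516 and lowered 3478 under LPS, and raised 2701 and lowered 3180 without LPS. Over all genes the interaction was higher for 1370 and lower for 1212. Among 20 genes that carry the signal from the LPS receptor to IKK, LPS without JSH-23 raised 10 and lowered 6, with a median log2 change of 0.21. More than 2-fold rises were those of Cd14, the co-receptor that hands LPS to TLR4 (2.41 ± 0.051, adjusted p = 8.8e-20), and Ikbkb, the catalytic IKK subunit IKKβ (1.27 ± 0.039, adjusted p = 3.12e-17). More than 2-fold falls were those of Tab1, an adaptor of the kinase TAK1 (-1.54 ± 0.085, adjusted p = 9.06e-13), and Tlr4 itself (-1.38 ± 0.065, adjusted p = 6.09e-14). With JSH-23, LPS raised 11 and lowered 6 of the 20, and the rise of Cd14 was 1.63 ± 0.050. Under LPS, JSH-23 raised 5 and lowered 9, among them Myd88, an adaptor of TLR4 signalling (-1.03 ± 0.043, adjusted p = 3.48e-14). Without LPS it raised 5 and lowered 8. The interaction was higher for 2 and lower for 6.

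The 5 genes of the NF-κB subunits, which the IκB proteins bind, rose less than the 10 genes by their median. LPS raised all 5 without JSH-23 (median 0.76) and 4 with it (median 0.68, Rel did not pass). Nfkb1, the gene of p105 and p50, rose by 1.25 ± 0.035 and 1.10 ± 0.035 on the log2 scale, and Nfkb2, the gene of p100 and p52, by 1.23 ± 0.043 and 1.04 ± 0.043. JSH-23 lowered all 5 under LPS (median -0.23) and 2 without LPS, and the interaction was lower for 2. The ratio of the summed TPM of the 10 genes to that of the 5 subunits does not depend on the scaling between libraries. This ratio was 1.46, 1.5 and 1.47 in WT and 2.78, 2.78 and 2.63 in WTL. It was 1.34, 1.32 and 1.34 in WT+JSH23 and 2.39, 2.41 and 2.36 in WTL+JSH23. The 4 groups did not overlap in this ratio.

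Of 16 other negative regulators of the pathway, 11 rose and 3 fell with LPS without JSH-23 (median 0.49), and 11 rose and 1 fell with it (median 0.47). The 3 largest rises without JSH-23 were those of Socs3, an inhibitor of cytokine receptor signalling (3.80 ± 0.070), Zc3h12a, the gene of the RNA-degrading enzyme Regnase-1 (2.54 ± 0.048), and Socs1 (1.61 ± 0.061), and those with JSH-23 were 3.64 ± 0.076, 2.15 ± 0.049 and 1.75 ± 0.070, all with adjusted p values of 6.93e-15 or less. Sigirr, a receptor of the Toll-like and interleukin receptor family that dampens signalling, fell by 1.49 on the log2 scale without JSH-23 (SE 0.126, adjusted p = 1.12e-09). JSH-23 raised 6 and lowered 8 of the 16 under LPS, and raised 6 and lowered 7 without LPS. More than 2-fold falls were those of Socs3 in both (-1.27 ± 0.062 under LPS, -1.11 ± 0.080 without) and of Socs1 without LPS (-1.12 ± 0.071). The interaction was higher for 2 of the 16 and lower for 1.

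Genes known from macrophages to need IκBζ for full induction were listed for their link to Nfkbiz. Of 7, Csf2 was not among the genes tested, and the other 6 all rose with LPS without JSH-23 (median 5.21) and with it (median 3.69). Under LPS, JSH-23 lowered all 6 (median -1.10). Il6, a cytokine gene, had 1850 ± 105 CPM in WTL and 1230 ± 77.3 in WTL+JSH23, against 30.2 ± 2.38 in WT and 46.7 ± 6.82 in WT+JSH23. Edn1, the gene of endothelin 1, had 86.9 ± 17.3 CPM in WTL and 9.28 ± 0.612 in WTL+JSH23 (-3.23 ± 0.120, adjusted p = 6.85e-15), from 1.48 ± 0.398 in WT and 0.22 ± 0.101 in WT+JSH23. Csf3, the gene of the neutrophil growth factor G-CSF, had 3.77 ± 0.709 and 1.70 ± 0.448 CPM after LPS without and with JSH-23 (-1.17 ± 0.253, adjusted p = 0.000609) and at most 0.0723 CPM in any library without LPS. Cebpd, the gene of a transcription factor, fell by 1.19 (SE 0.064, adjusted p = 1.76e-12). Without LPS the list did not move one way under JSH-23, with 2 genes higher and 3 lower, and Il12b, a subunit gene of interleukin 12, was 1.28 ± 0.077 higher (adjusted p = 1.5e-11). The interaction was lower for 4 of the 6, of which Il12b (-1.92 ± 0.106, adjusted p = 1.49e-10) and Il6 (-1.21 ± 0.106, adjusted p = 1.63e-07) passed 2-fold. The interaction of Nfkbiz itself was -0.007 ± 0.073.

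For the gene of each subfamily with the highest mean TPM over all 12 libraries, the 3 protein-coding genes with the most similar profile were found among 7688 genes with a mean of at least 10 CPM, by the root mean square difference of centred log2 CPM over the 12 libraries, where 0 would be an identical profile. For the nuclear IκB genes this was Nfkbiz, although Bcl3 was the more abundant in both groups without LPS. Nfkbia was followed most closely by Rrs1 (0.0694), Rcsd1 (0.0759) and Itgav (0.101). For Nfkbiz they were Ccl3 (0.233), Tnfsf15 (0.305) and Il1b (0.344), which were farther away than those of Nfkbia. For Tnfaip3 they were Alpk2 (0.139), Cd40 (0.141) and Cdk5r1 (0.157), and for Tnip3 Apaf1 (0.0633), Myo10 (0.0697) and Dse (0.0706). Ccl3, a chemokine gene, had means of 29.1, 1330, 17.8 and 491 CPM in WT, WTL, WT+JSH23 and WTL+JSH23, where Nfkbiz had 26.04, 823.2, 13.82 and 434.5. Rcsd1 had 70.5, 306, 60 and 221 CPM, where Nfkbia had 265.9, 1180, 212.8 and 867.5.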

How the data were processed

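Per the labels, RNA of 12 BMDC libraries was sequenced. The labels name rRNA depletion and the study's methods poly(A) selection, and which applied is not settled here. The authors trimmed reads, aligned them to mm10 with STAR (2.6.0c in the submitters' processing notes) and deposited, per gene, RSEM expected counts, transcript lengths and TPM, with no filter or scaling between libraries. Between 7.75% and 8.52% of genes had fractional expected counts. Symbols came from GENCODE M21 on the same build (55154 of 55335 identifiers matched).

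Expected counts were rounded, filtered with filterByExpr (14357 genes, at least 99.94% of counts), scaled by TMM (factors 0.859 to 1.12) and tested with the quasi-likelihood F-test of edgeR 4.0.16 in R 4.3.3, in 1 fit of 12 libraries with 8 residual degrees of freedom, adjusted by Benjamini-Hochberg. SE is the absolute log2 change over the square root of F. The fit was tested on simulated data. All 10 genes are named, and of each pathway list, in each comparison, at most the 3 largest rises and falls past an adjusted p of 0.05 and 2-fold. Genes, lists and tests were chosen with earlier results of these data known. Alternatives used DESeq2 1.42.0, limma 3.58.1 on log2(TPM + 1), other scalings, no filter, a replicate block, a 2-fold threshold and each library left out.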

Additional observations from a re-analysis of the deposited data

Results flagged for a closer look

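Outlying libraries were not looked for gene by gene, since each group had 3. The LPS change differed with and without JSH-23, by the interaction term of edgeR, for 3 of the 10 inhibitors. The log2 LPS change with JSH-23 minus that without it was -0.358 for Tnip1, -0.346 for Nfkbib and -0.281 for Bcl3, with adjusted p values of 4.78e-05, 0.00178 and 0.00494. Nfkbib is the gene that shares read pairs with other genes and overlaps Sirt2.

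The rule named 16 genes of the pathway lists by their changes in these same comparisons, the interaction among them. A count among the 16 is therefore no measure of the lists. Of all 14357 genes tested, the interaction passed for 2582. It also passed for 11 of the 16 named genes, 2 of them by more than 2-fold. These 2 were Il6 (-1.214, adjusted p = 1.63e-07) and Il12b (-1.917, adjusted p = 1.49e-10), both of which were also higher in WT+JSH23 than in WT, at 46.7 against 30.2 CPM and 275 against 114 CPM. Of the receptor and its signalling genes, Tlr4 (0.985) and Tab1 (0.562), which LPS lowered, had a smaller fall with JSH-23. Cd14 (-0.778), Ikbkb (-0.29) and Myd88 (-0.196) had a smaller rise. The rise was also smaller for the subunit genes Nfkb1 (-0.159) and Nfkb2 (-0.185), for Zc3h12a (-0.391) and for Cebpd (-0.477).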

How the results depend on the processing

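Of 880 alternative values of the 50 log2 changes and interactions of the 10 genes, 846 kept their direction and their side of the threshold, 12 lost the call, 3 gained one and 19 turned, of which 2 had passed the test, both of Tnip2. With limma on log2(TPM + 1), which put the median of all genes at -0.26 (LPS, no JSH-23), -0.163 (LPS, JSH-23) and 0.107 (interaction), the log2 LPS change of Tnip2 without JSH-23 was -0.086, the JSH-23 change under LPS was 0.035 for Nfkbib and 0.015 for Tnip2, and the interaction was 0.033 for Nfkbia, 0.038 for Nfkbie, 0.020 for Nfkbiz, 0.068 for Tnfaip3 and 0.202 for Tnip2. There, 1 of the 10 genes passed the interaction, and Tnip2 no longer passed for LPS with JSH-23 (adjusted p = 0.204). The interaction of Tnip3 was -0.009 with DESeq2 and with its size factors in edgeR. With a library left out, the interaction ran from -0.046 to 0.029 for Nfkbiz, from -0.033 to 0.047 for Tnip3 and from -0.162 to 0.006 for Nfkbid. The fall of Tnip1 with JSH-23 without LPS was also lost with upper quartile scaling (adjusted p = 0.0981), no filter (0.122) and log2(TPM + 1) (0.216). The cause of these turns was not tested.

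Requiring 2-fold left 2361 of 9437 genes for LPS without JSH-23, 1484 of 7828 with it, 1005 of 6994 for JSH-23 under LPS and 771 of 5881 without LPS. Of the 10 genes it left 8 and 7 for LPS, and 0 and 0 for JSH-23 in edgeR, where 9 and 9 passed without it. The share of higher calls differed between fits, some of which changed the test and the length correction as well as the scaling. It went from 47.2% to 19.7% for LPS without JSH-23 on log2(TPM + 1), from 50.3% to 37.7% (upper quartile) and 24.9% (TPM) with JSH-23, from 50.3% to 68.3% (TPM) for JSH-23 under LPS, and from 53.1% to 41% (DESeq2) and 79.5% (TPM) for the interaction. The share of Nfkbia in the family was 19.6%, 21.3%, 19.2% and 21.9% in WT, WTL, WT+JSH23 and WTL+JSH23 by CPM, which does not divide by length. A looser κB motif, with only its first 3 and last 2 bases fixed, was in 50.8% of all windows and in 10 of the 12 windows of these genes. Those windows again belong to 7 of the 9 genes, and the share of all genes with the looser motif was not computed.

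Libraries of the same number in groups with and without LPS deviated together only weakly, with correlations of 0.014 to 0.061. All of these were above 0, while those of different numbers ran from -0.056 to 0.035. Not every library correlated best with its own number. The numbers were not taken as pairs in the main fit, and whether equal numbers shared a preparation was not tested. With the replicate number as a block, 9539, 7960 and 2968 genes passed for LPS without JSH-23, with it and for the interaction, and 10, 10 and 3 of the 10 inhibitors. No such fit was made between cells with and without JSH-23, which share no numbers. Depth limits Nfkbid and resting Nfkbiz most, with 475 and 376 counts at the least.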
